A study of Arabidopsis thaliana with 8 samples.

Results

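Named genes of the phosphate starvation response, 10 in all and called members here, were followed through RNA-seq of Arabidopsis thaliana seedlings in which RLI2 was knocked down by RNA interference. They were chosen by locus identifier from a table of 32833 genes: SQD1, SQD2, MGD2 and MGD3 of membrane lipid synthesis, the transporters PHT1;1 and PHT1;4, the regulators SPX1, SPX3 and IPS1, and the phosphatase PAP17. The rule itself names loci and holds no measured value, but earlier results of these data were known when it was written. RLI2, named ABCE2 in the table, is an ATP-binding cassette protein of the ABCE family, whose relatives in other organisms recycle ribosomes. RNAi line 5 (labelled RLI2 knockdown #5) had 2 libraries, RNAi line 12 (RLI2 knockdown #12) had 3, and the wild type (WT, Col-0) had 3. Whole seedlings of all 3 groups were kept for 3 days at 4 °C and then grown for 7 days at 22 °C on MS medium at 0.5 strength, which contains phosphate, in days of 16 h light and 8 h dark. Each RNAi line is a single line. The sources used here give neither the promoter of the RNAi construct nor whether replicates came from separate plates. The p-values therefore cover only the spread among these libraries, part or all of which could be technical.

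Plants short of phosphate switch on a shared set of genes through the transcription factor PHR1, which binds a short DNA sequence named P1BS. SPX proteins hold PHR1 back when phosphate is plentiful, and several SPX genes are themselves switched on by PHR1. The response replaces phospholipids of membranes by sulfolipids and galactolipids, raises phosphate uptake at the root, and releases phosphate from organic compounds with secreted phosphatases. A second arm runs through the microRNA miR399, which cleaves the messenger RNA of PHO2, an enzyme that marks phosphate transporters for degradation. The noncoding RNA IPS1 and its relative AT4 carry a site that pairs with miR399 but has extra bases in its middle, so that they hold the microRNA without being cut.

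The sequences of the miR399 arm are shown because IPS1 is a member and because AT4, a MIR399 precursor and PHO2 were measured beside it. All were read from the TAIR10.1 assembly of RefSeq, whose gene positions matched those of the deposited table for 32532 of the 32548 loci found in both. The 6 mature miR399 sequences share the seed GCCAAAG (bases 2 to 8, in capitals below). In the 3 target sites the capitals mark bases that pair with the closest miR399.
ath-miR399d: tGCCAAAGgagatttgccccg
ath-miR399b: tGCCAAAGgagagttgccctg
IPS1 site, chr3:3051224-3051247 (+): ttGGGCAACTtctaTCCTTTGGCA
AT4 site, chr5:895149-895172 (+): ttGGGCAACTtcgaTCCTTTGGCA
PHO2 site, chr2:14281884-14281904 (-): ttGGGCAAATCTCCTTTGGCA
The IPS1 and AT4 sites each had 18 paired bases, 3 mismatches and 3 unpaired bases in the middle. PHO2 held 5 sites with no unpaired middle bases, each with 19 paired bases and 2 mismatches.

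P1BS is an 8-base sequence, GNATATNC, which reads the same on both strands. In windows from 250 bases before to 50 bases after the annotated start it occurred in 5 of 10 members (SQD1, MGD2, PHT1;4, SPX1 and SPX3), against 6.23% of 32546 windows of the table's genes. Within the 250 bases before the start alone it lay whole in 2 of 10 members (MGD2 and SPX3), against 5.42% of all genes. Of 55 other phosphate genes listed for comparison, 18 (32.7%) held it whole in those 250 bases. The stretches of the members that lie wholly before the start are shown with the motif in capitals, each read on the gene's own strand. Of the other phosphate genes only AT4 and MIR399D, of the miR399 arm, are printed.
SPX3, chr2:18606181-18606220 (+): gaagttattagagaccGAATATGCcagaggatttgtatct
SPX3, chr2:18606304-18606343 (+): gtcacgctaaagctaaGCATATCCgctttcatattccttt
MGD2, chr5:6896433-6896462 (+): gttgttatatactactGAATATTCttttgt
AT4, chr5:894540-894579 (+): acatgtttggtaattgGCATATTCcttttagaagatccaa
MIR399D, chr2:14443223-14443262 (-): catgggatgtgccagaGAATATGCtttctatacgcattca
A match describes the letters of the window and does not show that PHR1 binds there, and a window without one says nothing about PHR1.

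Levels were deposited without a stated unit and are read here, from their values, as FPKM, fragments scaled to gene length and to the number of mapped fragments. The libraries held an estimated 42280000 to 49010000 fragments. ABCE2 checked the labels: it had 25.0 and 26.4 FPKM in line 5, 23.3 to 26.7 FPKM in line 12 and 57.5 to 58.6 FPKM in WT. A gene was tested if at least 2 libraries had 1 FPKM or more of it. The test was limma's on log2(FPKM + 1), and a gene was called when its Benjamini-Hochberg adjusted p over all 19395 tested genes was under 0.05. All 10 members had at least 1 FPKM in every library, so the filter took none of them in or out. The lowest value of any member in any library stood for about 79 fragments and the highest for about 20482. The line 5 and line 12 comparisons share the same WT libraries and are therefore not independent of each other.

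One WT library stood apart for these genes. Replicate 1 was the highest and replicate 3 the lowest of the WT libraries in 10 of 10 members, an order found in 15.9% of tested genes. The difference between WT replicate 3 and the mean of WT replicates 1 and 2 was taken on the log2(FPKM + 1) scale. Its median was -1.14 over the members and 0.02, slightly above 0, over all tested genes. WT replicate 3 was at least 2-fold lower in 6 of 10 members (SQD2, IPS1, MGD3, SPX1, SPX3 and PAP17), against 121 of 19395 tested genes, or 0.624%. SPX3, with a difference of -2.57, had the 7th lowest value of all tested genes. ABCE2 in the same library was 58.6 FPKM, at the top of the narrow WT range. The RNAi libraries had an order too: replicate 1 was below replicate 2 of line 5 in 10 of 10 members (50.7% of tested genes), and replicate 1 was the lowest of line 12 in 9 of 10 (33.2% of tested genes), with PHT1;1 as the exception. Each result for a member is therefore given below with and without WT replicate 3 where that library changes a call.

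**Figure D1:**
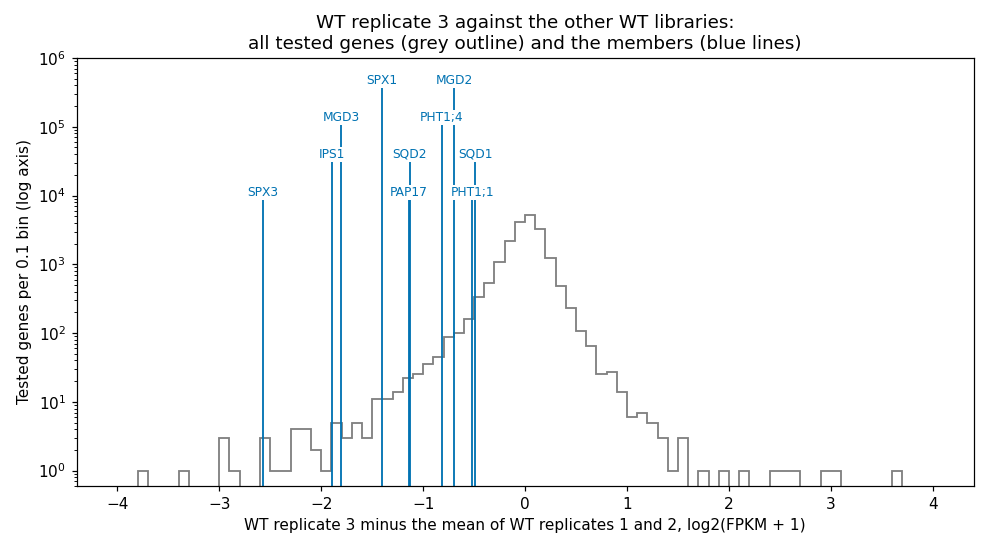
The difference between WT replicate 3 and the mean of WT replicates 1 and 2 in log2(FPKM + 1) is on the x axis, and the number of tested genes per bin of 0.1 is on a log y axis (grey outline). The blue lines mark the 10 members, which run from -2.57 for SPX3 to -0.49 for SQD1, all left of the median of all genes at 0.02; line heights only separate the names.

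The members were lower in the RNAi lines. In line 5, 6 of 10 were called lower, against 22.3% of all tested genes. In line 12, 7 of 10 were called lower, against 27.7% of all tested genes. In the mean of both lines, 8 of 10 were called lower, against 28.1%; SPX3 and PAP17 were not called. No member was called higher in either line or in their mean, where 22.2%, 28.3% and 28.1% of tested genes were. The median change over the members was -1.40 in line 5, -1.53 in line 12 and -1.43 in their mean on the log2(FPKM + 1) scale, against -0.01, -0.0024 and -0.01 over all tested genes. Every RNAi library lay below every WT library in 6 of 10 members (SQD1, SQD2, MGD2, PHT1;1, PHT1;4 and IPS1), an order found in 24.7% of tested genes. Set against WT replicates 1 and 2 alone, all 5 RNAi libraries were lower in 9 of 10 members, against 27.7% of tested genes. The 2 shares are not alike. Leaving out a WT library can only keep or raise such a count, and a gene can be gained only where that library was the lowest of WT. WT replicate 3 was the lowest of WT in 10 of 10 members and in 32.4% of tested genes. The libraries are whole seedlings, so fewer cells that express a gene and less RNA per cell cannot be told apart.

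**Figure D2:**
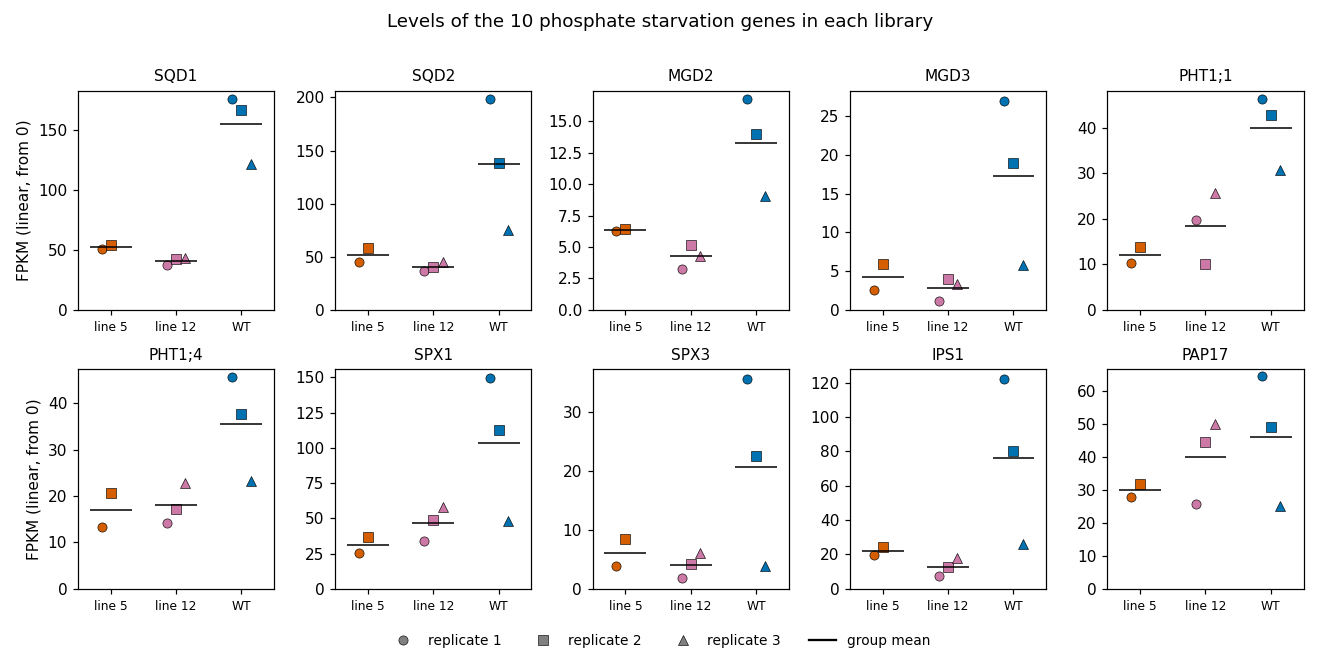
FPKM on a linear y axis from 0 for each member in its own panel, by library, with RNAi line 5 (2 libraries), RNAi line 12 (3) and WT (3) from left to right; marker shapes give the replicate and bars the group mean. WT replicate 3 (triangle) is the lowest WT point in all 10 panels, within the range of the RNAi libraries in MGD3, SPX1 and SPX3 and below all of them in PAP17.

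Both genes of sulfolipid synthesis fell in both lines. SQD1 makes UDP-sulfoquinovose, the head group of the sulfolipid, in the chloroplast; its gene, AT4G33030, lies at chr4:15935373-15937833 (+) with 3 exons. It had 51.1 and 53.9 FPKM in line 5, 37.4, 42.4 and 43.1 FPKM in line 12, and 175.6, 166.3 and 121.4 FPKM in WT. Even WT replicate 3 was more than 2-fold above every RNAi library. SQD1 changed by -1.52 in line 5 (95% interval -1.87 to -1.17, limma adjusted p = 0.000162) and by -1.87 in line 12 (-2.18 to -1.56, adjusted p = 2.25e-05), and it was called in both lines whichever of the 8 libraries was left out. SQD2, which joins that head group to the lipid, is encoded by AT5G01220 at chr5:86543-90117 (-) with 12 exons. Its levels were 45.5 and 58.4 FPKM in line 5, 36.2, 40.0 and 44.8 FPKM in line 12, and 198.4, 138.8 and 75.1 FPKM in WT. The RNAi libraries lay close together, while the WT libraries spread over 2.64-fold. The change of SQD2 was -1.29 in line 5 (-2.10 to -0.49, adjusted p = 0.0185) and -1.64 in line 12 (-2.36 to -0.92, adjusted p = 0.00281). The line 5 call ended without line 5 replicate 1 (-1.11, adjusted p = 0.116) and without WT replicate 2 (-1.23, adjusted p = 0.0532).

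The galactolipid synthases MGD2 and MGD3 make monogalactosyldiacylglycerol at the outer chloroplast envelope and are the phosphate-responsive relatives of MGD1, the main enzyme of the inner envelope. MGD2 (AT5G20410, chr5:6896463-6898783, +, 6 exons) had 6.23 and 6.42 FPKM in line 5, 3.26, 5.20 and 4.31 FPKM in line 12, and 16.8, 14.0 and 9.07 FPKM in WT. The groups did not overlap. Its change was -0.92 in line 5 (-1.48 to -0.37, adjusted p = 0.0162) and -1.42 in line 12 (-1.92 to -0.92, adjusted p = 0.00092). The line 5 call of MGD2 ended when either of the 2 line 5 libraries was left out (adjusted p = 0.0823 without replicate 1 and 0.0645 without replicate 2). MGD3 (AT2G11810, chr2:4743162-4746813, +, 7 to 8 exons) spread more than MGD2. Its levels were 2.57 and 5.98 FPKM in line 5, 1.16, 3.96 and 3.33 FPKM in line 12, and 27.0, 19.0 and 5.76 FPKM in WT. WT replicate 3 lay just under the higher line 5 library. MGD3 fell in line 12 by 2.12 (change -2.12, -3.41 to -0.82, adjusted p = 0.0134), and its value in line 5 was -1.64 (-3.09 to -0.19, adjusted p = 0.0654). Without WT replicate 3 the line 5 value was -2.24 (adjusted p = 0.00974). The call in the mean of both lines (-1.88, adjusted p = 0.0143) ended when WT replicate 1 was left out (-1.46, adjusted p = 0.0572) or replicate 2 of WT was (-1.70, adjusted p = 0.0556). The coding sequences of MGD2 and MGD3 were 69.4% identical, and neither gene overlaps another.

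MGD1 itself gave no call: 40.1 and 59.6 FPKM in line 5, 34.6, 54.9 and 49.3 FPKM in line 12, and 56.8, 57.6 and 54.4 FPKM in WT (mean of both lines -0.25, -0.64 to 0.14, adjusted p = 0.242). DGD1 and DGD2 add a further galactose to that lipid. DGD1, the main enzyme, fell by 0.55 in the mean of both lines (change -0.55, adjusted p = 0.000284). DGD2, the phosphate-responsive one, had 7.52 and 8.12 FPKM in line 5, 7.65 to 9.40 FPKM in line 12 and 7.38 to 9.17 FPKM in WT, and its mean change was -0.03 (-0.25 to 0.18, adjusted p = 0.775). NPC4, a phospholipase C of the plasma membrane, had 1.41 and 2.87 FPKM in line 5, 1.10, 1.65 and 3.85 FPKM in line 12, and 14.0, 10.8 and 2.68 FPKM in WT. NPC4 fell by 1.52 in the mean of both lines (change -1.52, adjusted p = 0.0299), a call that ended without WT replicate 1 (-1.13, adjusted p = 0.113), WT replicate 2 (-1.30, adjusted p = 0.105), line 5 replicate 1 (-1.35, adjusted p = 0.0887), line 12 replicate 1 (-1.39, adjusted p = 0.0534) or line 12 replicate 2 (-1.47, adjusted p = 0.0521).

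PHT1;1 and PHT1;4 are the main high-affinity phosphate importers of the root. PHT1;1 (AT5G43350, chr5:17399769-17402158, -, 3 exons) had 10.3 and 13.9 FPKM in line 5, 19.9, 10.1 and 25.7 FPKM in line 12, and 46.4, 42.9 and 30.8 FPKM in WT. All RNAi libraries were below all WT libraries, with line 12 replicate 2 and line 5 replicate 1 the lowest. The change was -1.64 in line 5 (-2.45 to -0.83, adjusted p = 0.00696) and -1.14 in line 12 (-1.87 to -0.41, adjusted p = 0.0158). Leaving out line 5 replicate 1 ended the call in line 5 (-1.44, adjusted p = 0.0582), and leaving out WT replicate 1 ended it in line 12 (-1.03, adjusted p = 0.0546). PHT1;4 (AT2G38940, chr2:16257157-16260253, +, 2 exons) had 13.2 and 20.7 FPKM in line 5, 14.1, 17.2 and 22.7 FPKM in line 12, and 45.7, 37.7 and 23.1 FPKM in WT. WT replicate 3 and line 12 replicate 3 were close to each other. PHT1;4 fell to a like extent in both lines, with changes of -0.9996 in line 5 (-1.72 to -0.28, adjusted p = 0.033) and -0.91 in line 12 (-1.56 to -0.26, adjusted p = 0.0245). In line 5 its call ended without line 5 replicate 1 (-0.69, adjusted p = 0.215), WT replicate 1 (-0.80, adjusted p = 0.0889) or replicate 2 of WT (-0.93, adjusted p = 0.0864). In line 12 it ended without line 12 replicate 1 (-0.76, adjusted p = 0.0747), line 12 replicate 2 (-0.89, adjusted p = 0.0591), WT replicate 1 (-0.71, adjusted p = 0.0801) or replicate 2 of WT (-0.84, adjusted p = 0.0731). In the mean of both lines it ended without WT replicate 1 (-0.75, adjusted p = 0.0533).

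PHT1;1 has close copies in the genome. Its coding sequence was 97.7% identical to that of PHT1;2, 89.7% to that of PHT1;3 and 70.0% to that of PHT1;4, so reads may have been split between the first 3. PHT1;3 was listed at 0 FPKM in all 8 libraries. PHT1;2 had 1.21 and 1.93 FPKM in line 5, 0.00, 0.06 and 2.90 FPKM in line 12, and 7.61, 7.06 and 0.87 FPKM in WT. Its mean change of -1.33 was not called (-2.80 to 0.14, adjusted p = 0.109), and WT replicate 3 lay within the RNAi range. With 1 library left out, that change ranged from -2.04 to -0.94. Of the exporters and helpers of transport, PHO1, which loads phosphate into the xylem, had 10.8 and 17.0 FPKM in line 5, 16.6, 6.40 and 14.9 FPKM in line 12, and 24.1, 26.9 and 21.7 FPKM in WT. PHO1 fell by 0.88 in the mean of both lines (change -0.88, adjusted p = 0.0312), a call that ended without WT replicate 1, 2 or 3 (adjusted p = 0.0791, 0.0981 and 0.0579) or line 5 replicate 1 (adjusted p = 0.0965).

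Root markers were measured beside the transporters. The 19 root marker genes summed to 675 and 1010 FPKM in line 5, 571 to 1061 FPKM in line 12 and 1460 to 1874 FPKM in WT, and without the abundant PYK10 to 31.6 and 43.9, 32.2 to 73.4, and 70.5 to 106 FPKM. Of 13 that were tested, 9 were called lower and 0 higher in line 5, against 22.3% and 22.2% of all tested genes. In line 12, 4 were lower and 1 higher, against 27.7% and 28.3%, so the lower count was near the share of all genes. In the mean of both lines 8 were lower and 1 higher, against 28.1% each. PRP3, a cell wall protein of root hairs, had 2.17 and 4.13 FPKM in line 5, 14.2, 2.30 and 16.6 FPKM in line 12, and 19.8, 25.2 and 11.6 FPKM in WT. Line 12 replicate 2 was the lowest line 12 library for PRP3, EXPA7, CASP1, PHO1 and PHT1;1, and 3 root markers were at 0 in it. The 10 leaf markers summed to 30330 and 31884 FPKM in line 5, 24072 to 26027 FPKM in line 12 and 31558 to 33028 FPKM in WT. All 10 were tested, and 5 were called lower and 2 higher in line 5. In line 12, 8 were lower and 0 higher, and in the mean of both lines 6 were lower and 0 higher. The shares of all tested genes are those given for the root markers. WT replicate 3 had the lowest root sum of WT with 1460 FPKM and the highest leaf sum. The part of these differences in the members' levels was not tested.

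SPX1 and SPX3 encode small SPX proteins that bind PHR1. SPX1 (AT5G20150, chr5:6802282-6803655, +, 3 exons) had 25.6 and 36.9 FPKM in line 5, 34.0, 49.1 and 58.0 FPKM in line 12, and 149.5, 112.4 and 48.4 FPKM in WT. WT replicate 3 lay inside the range of line 12. The change of SPX1 was -1.57 in line 5 (-2.61 to -0.54, adjusted p = 0.0229) and its value in line 12 was -1.01 (-1.93 to -0.08, adjusted p = 0.0623). Without WT replicate 3, line 12 was called as well (-1.48, adjusted p = 0.00356). The line 5 call ended without line 5 replicate 1 (-1.32, adjusted p = 0.139), line 5 replicate 2 (-1.83, adjusted p = 0.0505), WT replicate 1 (-1.24, adjusted p = 0.0576) or replicate 2 of WT (-1.44, adjusted p = 0.0663). The call in the mean of both lines (-1.29, adjusted p = 0.0167) ended without line 5 replicate 1 (-1.16, adjusted p = 0.0549), WT replicate 1 (-0.96, adjusted p = 0.0623) or replicate 2 of WT (-1.16, adjusted p = 0.0634).

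SPX3 showed the widest WT spread of the members. Its gene, AT2G45130 at chr2:18606410-18607853 (+) with 3 exons, is the one whose promoter holds both P1BS matches printed above. It had 3.80 and 8.54 FPKM in line 5, 1.80, 4.20 and 6.17 FPKM in line 12, and 35.6, 22.6 and 3.95 FPKM in WT. The highest WT library exceeded the lowest 9.02-fold, and WT replicate 3 lay among the RNAi libraries. With all libraries SPX3 was not called: -1.26 in line 5 (-3.14 to 0.62, adjusted p = 0.24), -1.79 in line 12 (-3.47 to -0.10, adjusted p = 0.0678) and -1.52 in their mean (adjusted p = 0.0802). Without WT replicate 3 all of these were called, at -2.12 (adjusted p = 0.016), -2.64 (adjusted p = 0.00347) and -2.38 (adjusted p = 0.00391).

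PHR1 and the other SPX genes were measured beside them. PHR1 had 47.5 and 48.6 FPKM in line 5, 37.7 to 41.9 FPKM in line 12 and 44.9 to 45.7 FPKM in WT; it was lower in line 12 by 0.18 (change -0.18, adjusted p = 0.0205), and its mean change was -0.05 (-0.15 to 0.06, adjusted p = 0.421). SPX2 had 16.5 and 17.0 FPKM in line 5, 16.8 to 18.6 FPKM in line 12, and 26.4, 24.8 and 18.4 FPKM in WT. Its change of -0.39 in the mean of both lines was called (adjusted p = 0.0183) and was not called without WT replicate 1 (-0.29, adjusted p = 0.0709), WT replicate 2 (-0.34, adjusted p = 0.0719) or line 5 replicate 1 (-0.38, adjusted p = 0.0511). SPX4, which holds PHR1 in the cytoplasm, was higher in every RNAi library than in any WT library. It had 12.9 and 13.7 FPKM in line 5, 14.7, 10.5 and 12.3 FPKM in line 12, and 6.60, 6.86 and 8.50 FPKM in WT, and rose by 0.74 in the mean of both lines (0.47 to 1.01, adjusted p = 0.00112).

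IPS1 is the miR399 mimic shown above; its gene, AT3G09922, lies at chr3:3050989-3051530 (+) as 1 exon. It had 19.5 and 24.2 FPKM in line 5, 7.21, 12.6 and 17.9 FPKM in line 12, and 122.1, 80.5 and 26.0 FPKM in WT. The RNAi libraries were all lower than WT, but WT replicate 3 lay only just above the higher line 5 library. IPS1 fell in line 12 (change -2.34, -3.59 to -1.08, adjusted p = 0.00723). In line 5 its value was -1.51 (-2.91 to -0.11, adjusted p = 0.0754), and without WT replicate 3 it was called there too (-2.14, adjusted p = 0.00544). The mean of both lines gave -1.92 (-3.05 to -0.80, adjusted p = 0.011), and this call held whichever library was left out. AT4, the second mimic, had 73.6 and 103.6 FPKM in line 5, 59.5, 48.0 and 86.7 FPKM in line 12, and 239.8, 198.4 and 81.2 FPKM in WT. WT replicate 3 again lay within the RNAi range. AT4 fell by 1.07 in the mean of both lines (change -1.07, adjusted p = 0.0355), and the call ended in 5 of the 8 fits that left out a library, those without WT replicate 1 (-0.77, adjusted p = 0.132), WT replicate 2 (-0.91, adjusted p = 0.121), line 5 replicate 1 (-0.95, adjusted p = 0.102), line 12 replicate 1 (-1.05, adjusted p = 0.0599) and line 12 replicate 2 (-0.98, adjusted p = 0.0621).

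The MIR399D precursor is measured here as its transcript, not as the mature microRNA. It was listed at 0.22 and 1.37 FPKM in line 5, 0.00, 1.38 and 0.46 FPKM in line 12, and 15.9, 6.94 and 1.42 FPKM in WT, which stood for about 1 and 6, 0, 6 and 2, and 74, 34 and 6 fragments. Its mean change was -2.10 (-3.52 to -0.68, adjusted p = 0.0201). The call of MIR399D ended without WT replicate 1 (-1.45, adjusted p = 0.0664), WT replicate 2 (-1.99, adjusted p = 0.0656) or line 5 replicate 1 (-1.86, adjusted p = 0.0646). PHO2, the target with the 5 sites, was lower as well and with less spread than MIR399D: 32.0 and 31.6 FPKM in line 5, 30.8, 28.2 and 33.3 FPKM in line 12, and 56.0, 66.5 and 55.3 FPKM in WT. PHO2 fell by 0.90 in the mean of both lines (change -0.90, -1.08 to -0.71, adjusted p = 5.89e-05). NLA, a ubiquitin ligase that acts on PHT1 transporters, had 19.7 and 16.9 FPKM in line 5, 21.2, 20.4 and 18.5 FPKM in line 12, and 5.41, 5.08 and 6.68 FPKM in WT. NLA rose by 1.59 in the mean of both lines (1.37 to 1.81, adjusted p = 9.04e-06). For PHO2, NLA and SPX4, WT replicate 3 differed from the mean of the other WT libraries by -0.14, 0.30 and 0.30, against the -2.57 to -0.49 of the members. It was the lowest WT library for PHO2 and the highest for NLA and SPX4, in each case the WT library nearest to the RNAi libraries. The WT ranges of these genes were 0.26, 0.34 and 0.32 in log2(FPKM + 1), wider than the median of 0.18 over all tested genes.

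**Figure D3:**
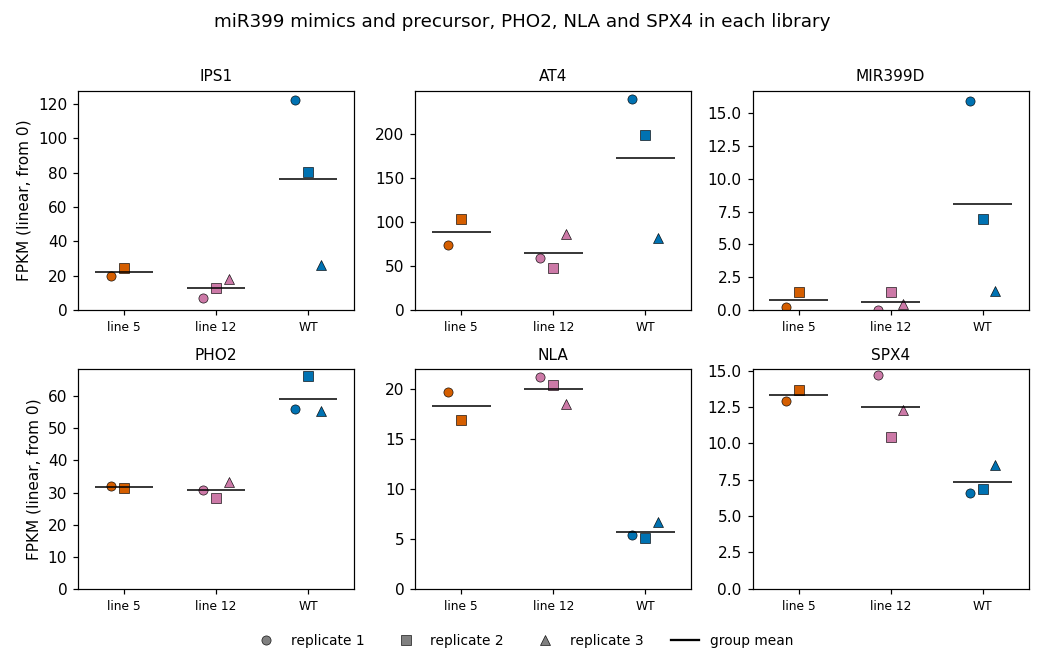
FPKM on linear y axes from 0 for IPS1, AT4, MIR399D, PHO2, NLA and SPX4 in RNAi line 5 (2 libraries), RNAi line 12 (3) and WT (3) from left to right, with marker shapes for replicates and bars for group means. The upper 3 panels show WT libraries spread widely with replicate 3 low. PHO2 (lower in the RNAi lines) and NLA and SPX4 (higher in the RNAi lines) show WT libraries closer together than those panels do. In NLA and SPX4, replicate 3 is the highest WT point.

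PAP17, a purple acid phosphatase, was the member with the smallest difference. Its gene, AT3G17790 at chr3:6089381-6091231 (+) with 3 exons, overlaps AT3G17800 on the opposite strand (85.2 to 102.5 FPKM), and no strand setting is given in the sources used here, so reads of the overlap cannot be told apart. PAP17 had 27.9 and 31.9 FPKM in line 5, 25.7, 44.6 and 50.2 FPKM in line 12, and 64.6, 49.0 and 25.0 FPKM in WT. WT replicate 3 had the lowest value of all, and all 5 RNAi libraries lay within the WT range. PAP17 was called in neither line, with -0.51 in line 5 (-1.44 to 0.41, adjusted p = 0.328) and -0.15 in line 12 (-0.98 to 0.68, adjusted p = 0.739), nor in their mean (-0.33, -1.08 to 0.42, adjusted p = 0.406).

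**Figure D4:**
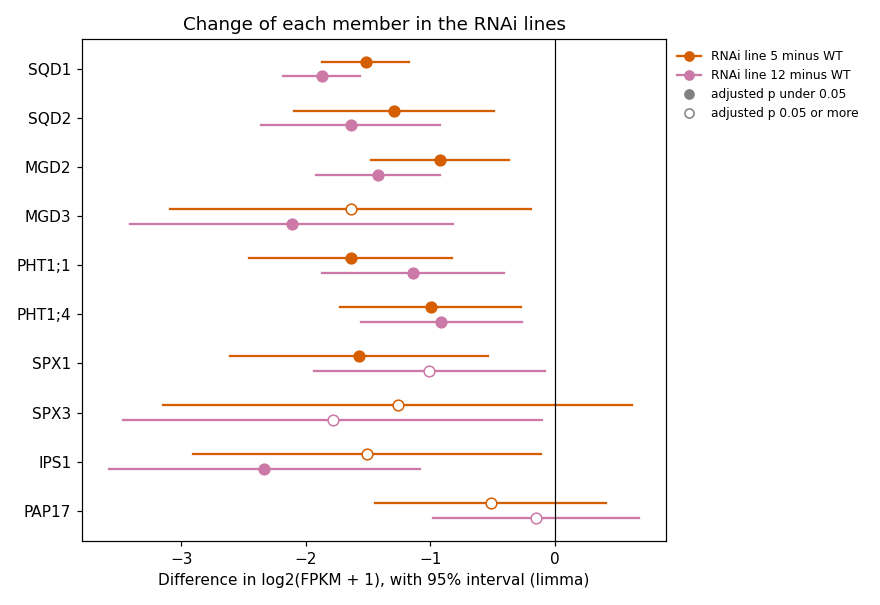
Change of each member in RNAi line 5 (orange, above) and RNAi line 12 (pink, below) relative to WT on the x axis, in log2(FPKM + 1), with 95% intervals from limma; filled points were called and open points were not. SQD1 has the narrowest intervals and SPX3 the widest, and the intervals of PAP17 span 0 in both lines.

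The members were counted in each comparison without each library. Leaving out WT replicate 3 raised the members called lower to 9 of 10 in line 5, in line 12 and in their mean, all but PAP17, against 19.8%, 24.7% and 24.5% of tested genes called lower in the same fits. That library was the lowest of WT in 10 of 10 members, so leaving it out could only raise their WT means. Leaving out WT replicate 1 gave 4, 5 and 5 of 10 (18.2%, 24% and 23.3% of tested genes), and leaving out WT replicate 2 gave 3, 6 and 6 (18.1%, 24.5% and 23.7%). Without line 5 replicate 1 a single member, SQD1, was called in line 5, where 13.9% of tested genes were called lower. Ribosomal RNA took 0.468% and 2.18% of the fragments in line 5, 0.161% to 7.60% in line 12 and 0.192% to 0.412% in WT, and without the 3 RNAi libraries above 2% the members called lower were 2 of 10 in line 5, 5 in line 12 and 8 in their mean, against 17.5%, 18% and 23.2% of tested genes. The counts of 1 and 2 in line 5 are near these shares. Calls that held in all 8 fits with 1 library left out were those of SQD1 in line 5; of SQD1, SQD2, MGD2, MGD3 and IPS1 in line 12; and of SQD1, SQD2, MGD2, PHT1;1 and IPS1 in the mean of both lines.

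Line 12 and line 5 were also set against each other. None of the members was called by limma (0 of 10, against 19% of tested genes in either direction), and 1 of 10, SQD1, had an unadjusted p under 0.05. SQD1 was lower in line 12 by 0.35 (difference -0.35, -0.70 to -0.01, adjusted p = 0.143). The intervals of the other members were wider: -2.22 to 0.57 for IPS1, -0.31 to 1.31 for PHT1;1, -0.47 to 1.60 for SPX1 and -2.40 to 1.36 for SPX3. SQD1 was called without WT replicate 3 (-0.35, adjusted p = 0.0239), and PHT1;1 without line 12 replicate 2 (0.86, adjusted p = 0.047). Except for SQD1 and PHT1;4 (-0.64 to 0.81), the intervals reach past a 2-fold difference between the lines.

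A wider list of 55 other phosphate genes held 45 that were tested. In line 5, 13 of 45 were called lower and 7 higher, against 22.3% and 22.2% of all tested genes. In line 12, 18 of 45 were lower and 11 higher, against 27.7% and 28.3%. In the mean of both lines, 20 of 45 were lower and 10 higher, against 28.1% each, and the median change was -0.45, against -0.01 over all tested genes. The counts of higher genes were at or below the share of all genes in each comparison. In that mean, transport and traffic genes were lower in 5 of 7 and higher in none. Phosphatases and recycling enzymes were lower in 6 of 9 and higher in 1. Lipid remodelling genes were lower in 5 of 10 and higher in 2, regulators lower in 4 of 14 and higher in 5, and genes of root growth under low phosphate lower in 0 of 5 and higher in 2. Set against the 28.1% of all tested genes in each direction, the count of lower regulators was at that share, and groups of 5 to 14 genes give coarse shares. WT replicate 3 was the lowest of WT in 32 of the 45, against 32.4% of tested genes, so leaving it out raised the WT mean more often in this list. Without WT replicate 3 the count in the mean of both lines was 25 of 45 lower and 10 higher. Of all tested genes, 24.5% were called lower there and 50.2% in either direction. Without WT replicate 1 it was 10 lower, without WT replicate 2 it was 11, and without line 5 replicate 1 it was 12, which are near the 23.3%, 23.7% and 24.2% of tested genes called lower in those fits.

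Among the recycling enzymes, PPCK1 and PPCK2 phosphorylate phosphoenolpyruvate carboxylase. PPCK1 had 20.3 and 22.4 FPKM in line 5, 19.4, 17.8 and 24.8 FPKM in line 12, and 61.6, 51.9 and 31.0 FPKM in WT, and fell by 1.12 in the mean of both lines (change -1.12, adjusted p = 0.00301). PPCK2 changed by -0.95 (adjusted p = 0.00698). RNS1, a secreted ribonuclease, changed by -1.12 (adjusted p = 0.0288), and its call ended without WT replicate 1 (-0.91, adjusted p = 0.107), WT replicate 2 (-0.99, adjusted p = 0.0973) or line 5 replicate 1 (-0.89, adjusted p = 0.0896). G3Pp1, a relative of glycerol-3-phosphate permeases, had 25.9 and 32.7 FPKM in line 5, 21.9 to 26.7 FPKM in line 12, and 68.7, 58.1 and 36.8 FPKM in WT, a mean change of -0.98 (adjusted p = 0.00346). PHO1;H1, a relative of PHO1, changed by -0.91 (adjusted p = 0.00543). All 5 of these had WT replicate 3 as the lowest WT library. PHF1, which lets PHT1 transporters leave the endoplasmic reticulum, changed by -0.40 (adjusted p = 0.0405), a call that held only in the fits without line 12 replicate 2 or WT replicate 3 (adjusted p = 0.0611 to 0.149 in the other 6).

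ZAT6, MYB62 and WRKY75 are transcription factors of the wider list. ZAT6, a zinc finger protein, had 18.1 and 18.3 FPKM in line 5, 8.76 to 9.18 FPKM in line 12, and 4.27 to 5.40 FPKM in WT. It rose by 1.26 in the mean of both lines (adjusted p = 7.03e-06). MYB62 had 2.51 and 1.46 FPKM in line 5, 4.86, 9.97 and 9.72 FPKM in line 12, and 1.45, 1.19 and 0.68 FPKM in WT, and rose in line 12 by 2.09 (adjusted p = 0.000443), with 0.50 in line 5 (adjusted p = 0.218). WRKY75 rose by 0.69 in line 12 (adjusted p = 0.0324), a call that ended without line 12 replicate 1 (0.62, adjusted p = 0.0874), line 12 replicate 3 (0.55, adjusted p = 0.101), WT replicate 1 (0.57, adjusted p = 0.104) or replicate 2 of WT (0.70, adjusted p = 0.0739), and its value in line 5 was 0.10 (adjusted p = 0.779).

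**Figure D5:**
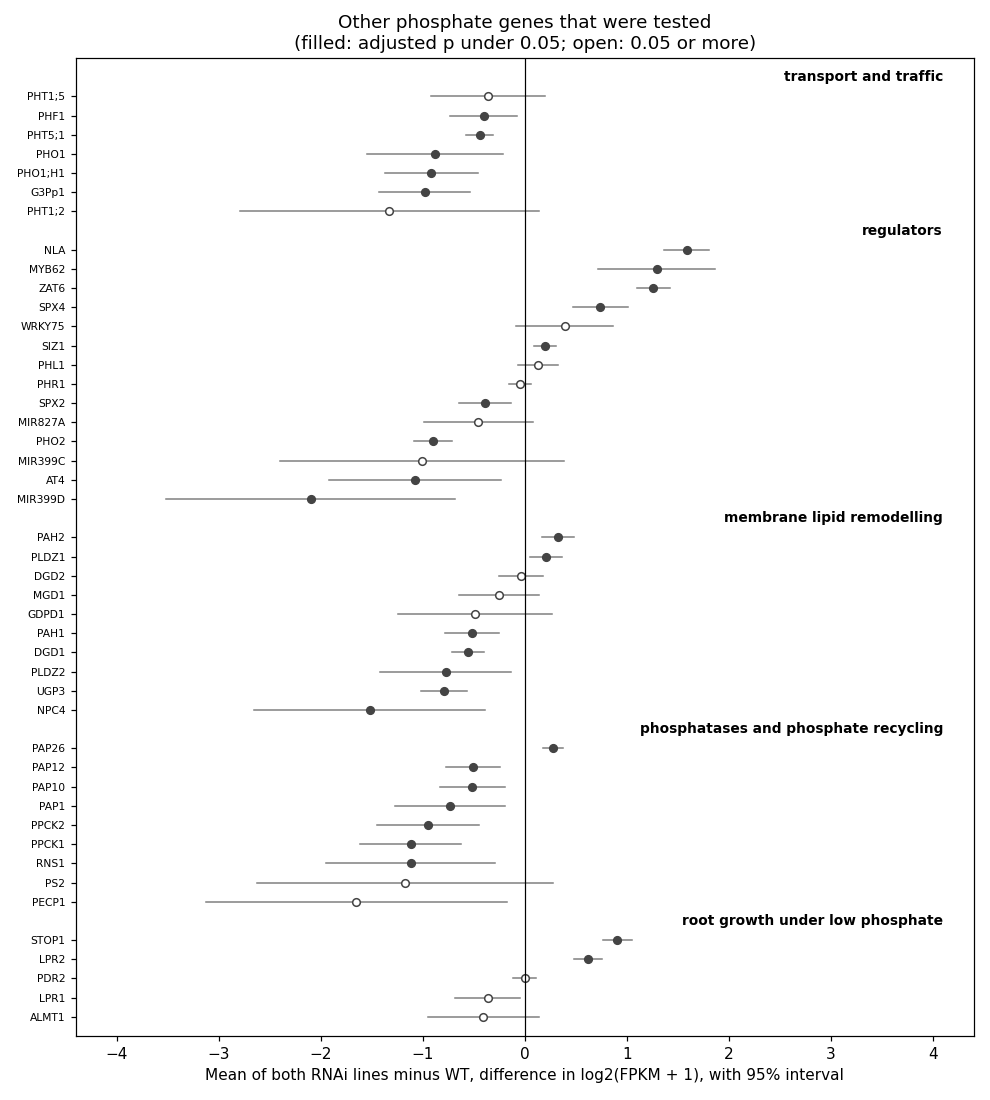
Change of the 45 tested genes of the wider list in the mean of both RNAi lines relative to WT, on the x axis in log2(FPKM + 1) with 95% intervals, grouped by role; filled points were called and open points were not. Called genes lie on both sides of 0: NLA is the highest at 1.59 and MIR399D the lowest at -2.10.

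The 5 tested genes outside the members whose profiles lay nearest to the members' mean profile over the 8 libraries were AT5G53048, AT2G45135, AT5G20790, LDOX and IPSP. Nearness was the Euclidean distance of row-centred log2(FPKM + 1) values, and it is a description over libraries that share groups. AT5G53048, annotated as a long noncoding RNA at chr5:21509861-21511850 (+), was the nearest at 0.20. It had 4.64 and 6.76 FPKM in line 5, 3.15, 4.87 and 6.10 FPKM in line 12, and 21.1, 16.1 and 6.88 FPKM in WT, the same order of libraries within WT as the members. AT2G45135 lies 970 bases past SPX3 on the same strand, so reads past the end of SPX3 could count towards it, and had 0.61 and 0.89 FPKM in line 5, 0.42 to 1.07 FPKM in line 12, and 4.42, 3.66 and 1.50 FPKM in WT. LDOX, an enzyme of anthocyanin synthesis, had 1.35 and 1.22 FPKM in line 5, 0.57 to 1.38 FPKM in line 12, and 5.59, 4.34 and 1.93 FPKM in WT. AT5G20790 and IPSP lay at distances of 0.50 and 0.60, and of the members themselves SQD2 was the nearest to the mean profile at 0.43 and PAP17 the farthest at 1.62.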

How the data were processed

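RNA-seq libraries of whole seedlings (2 of RNAi line 5, 3 of RNAi line 12, 3 of WT) were grouped by their titles. Each TruSeq library began with 1.5 µg of total RNA, per the labels' protocols. Per the submitters' processing notes, HISAT2 and StringTie were used with the TAIR10 build; versions, the counting step, the annotation release and the strand setting were not found in these sources. The authors deposited 1 table of 32833 genes with levels per library, read here as FPKM from their values because the header gives no unit. Low values times gene length were whole multiples of 1 step for 83.3% to 84.6% of values (tolerance 0.01 reads). Fragments per library were estimated from that step, but read counts were not recovered and no count test was run.

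A gene entered the test with 1 FPKM or more in 2 or more libraries, which left 19395. The test used limma 3.58.1 in R 4.3.3 on log2(FPKM + 1), allowing the variance to follow the mean level. A single fit held the 3 groups and all 8 libraries (5 residual and 2.711 prior degrees of freedom), with Benjamini-Hochberg adjustment over all tested genes and a threshold of 0.05. A change on this scale understates that of low genes. Sequences and coding sequence identities were computed with Biopython 1.88 from the RefSeq TAIR10.1 genome; nucleotide identity replaced the planned protein identity.

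The members, lists and tests were chosen with earlier results of these data known. Beside the members and ABCE2, 13 phosphate genes were named by role, then the 10 other listed genes called in the mean of both lines with the largest change, markers with the largest change, and the 5 nearest profiles. The closing section gives the alternatives.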

Additional observations from a re-analysis of the deposited data

Results flagged for a closer look

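Between the RNAi lines, 4 of the named phosphate genes outside the members differed by limma's test of line 12 against line 5 over all genes. Of the 45 tested genes of the wider list, which holds these 4, 4 were called higher and 3 lower in line 12. In either direction, 19% of all tested genes were called, so such calls were no more frequent in the list than among all genes. PHR1 averaged 40.0 ± 2.14 FPKM in line 12 (SD, n = 3) and 48.1 ± 0.769 FPKM in line 5 (SD, n = 2), a difference of -0.26 on the log2(FPKM + 1) scale (limma adjusted p = 0.0196), with all 3 line 12 libraries below both line 5 libraries. DGD1 averaged 23.0 ± 0.707 FPKM in line 12 and 29.2 ± 1.29 FPKM in line 5, a difference of -0.33 (limma adjusted p = 0.0306). MYB62 averaged 8.19 ± 2.88 FPKM in line 12 and 1.99 ± 0.738 FPKM in line 5, a difference of 1.59 (limma adjusted p = 0.0114). ZAT6 averaged 8.95 ± 0.213 FPKM in line 12 and 18.2 ± 0.106 FPKM in line 5, a difference of -0.95 (limma adjusted p = 0.000765). The groups held too few libraries for a search for single libraries far from the rest.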

How the results depend on the processing

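For the members, 376 of 390 values under other settings kept their direction and their side of the threshold, as did 284 of 320 with 1 library left out; of the others, 12 and 23 lost a call, 1 and 8 gained one and 1 and 5 turned sign. The other settings were a pseudocount of 0.1, a filter at 5 FPKM or none, no intensity trend, median centring, FPKM rescaled after organelle and ribosomal RNA genes were dropped, and those named below. With 1 library left out, members called lower ranged from 1 to 9 in line 5, 5 to 9 in line 12 and 5 to 9 in the mean of both lines, and from 0 to 1 between the lines. Of the 45 other phosphate genes tested, 7 to 24 were called lower in line 5 in the fits that kept both line 5 libraries. In line 12 it was 9 to 24, and in the mean of both lines 10 to 25. The lowest counts came without WT replicate 2 in each line and without WT replicate 1 in the mean. There 18.1%, 24.5% and 23.3% of tested genes were called lower, so these counts were near or below the share of all genes. The highest counts came without WT replicate 3, against 19.8%, 24.7% and 24.5%. All genes called ranged from 5501 to 8793 in line 5 and from 1448 to 3607 between the lines. Where 1 line 5 library was left, it was assumed to vary like the other groups. A minimum change of 2-fold left 1835, 2152, 1851 and 564 genes called in line 5, line 12, their mean and between the lines. Of the 45 other phosphate genes tested it left 2, 7 and 5 lower and 2, 2 and 3 higher. The shares of all tested genes were 3.78%, 4.59% and 3.94% lower, and 9.46%, 11.1% and 9.54% in either direction. The line 5 count of 2 lower is near its share. Without the libraries above 2% ribosomal RNA (replicate 2 of line 5 and replicates 2 and 3 of line 12), 2 members were called in line 5, 7046 genes and 8 other phosphate genes lower in line 12, and 426 genes between the lines. The count of 8 other phosphate genes is near the share of all tested genes called lower in line 12 without those libraries, given above. With only the groups compared in the fit, 1 member (SQD1) was called between the lines. The mean of both lines has no such value. P1BS lay in 2 members when only the 250 bases before the start were searched.

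The replicate numbers did not pair the libraries: same-numbered pairs had r of -0.298 to 0.163 and 0 of 8 libraries lay closest to one of their own number. With the number as a replicate block, 6354, 9486, 9286 and 1539 genes were called in line 5, line 12, their mean and between the lines. Of the members, 5, 6, 8 and 0 were called. Of the 45 other phosphate genes tested, 10, 11 and 13 were called lower in line 5, line 12 and their mean. The shares of all tested genes called lower there were 15.8%, 24% and 23.4%, so the line 12 count of other phosphate genes was at that share.

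Values that turned sign were all uncalled. With 1 library left out, the difference between lines ranged from -0.96 to 0.0079 for MGD3 and from -0.22 to 0.39 for PHT1;4. In line 12 PAP17 ranged from -0.53 to 0.14 and DGD2 from -0.053 to 0.11. DGD2 ranged from -0.12 to 0.019 in the mean of both lines, and in line 5 MGD1 ranged from -0.48 to 0.083 and WRKY75 from -0.19 to 0.38. Without the libraries rich in ribosomal RNA, the difference between lines was -0.11 for PAP17, DGD2 and EXPA7 in line 12 were -0.13 and 0.014, and WRKY75 in line 5 was -0.19. Median centring gave -0.014 for DGD2 in line 12. The cause was not tested in any of these.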

Other observations

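The low level in WT replicate 3 reached beyond the members. Of the 121 tested genes with that library at least 2-fold below the mean of WT replicates 1 and 2, 6 were members and 9 belonged to the wider phosphate list: PHT1;2, AT4, MIR399C, MIR399D, PLDZ2, NPC4, GDPD1, PECP1 and PS2. These 9 are named after their values were seen. PECP1 and PS2, which are phosphatases induced by low phosphate, had the 8th and 9th lowest differences of all tested genes. PECP1 had 5.94 and 9.03 FPKM in line 5, 4.02, 8.75 and 11.5 FPKM in line 12, and 61.7, 35.3 and 7.13 FPKM in WT. PS2 had 15.2 and 21.8 FPKM in line 5, 6.36, 12.4 and 18.4 FPKM in line 12, and 77.3, 48.6 and 9.91 FPKM in WT. WT replicate 3 was thus within the RNAi range for both. In the other direction, 34 tested genes were at least 2-fold higher in WT replicate 3, and 0 of them were members.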
